A study of Homo sapiens with 42 samples.

Results

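Untreated Nalm6, a human B-cell precursor acute lymphoblastic leukaemia (ALL) line, was set against 4 other untreated B-precursor lines, SUPB15, RS411, REH and 697. Its members are the 3 untreated Nalm6 libraries, called A, B and C, of 42 libraries in the series. The comparison used them with the 12 untreated libraries of the 4 other lines, 3 per line, chosen by cell line and treatment alone. RNA of 7 ALL lines had been sequenced without treatment and after L-asparaginase (1 IU/ml, 4 h), in a study of the amino acid stress response and resistance to that enzyme drug. All 15 libraries compared here came from the untreated arm. The cells were grown in RPMI-1640 with serum and glutamine, and the design text describes 3 independent experiments per line. Every line is an established culture from 1 patient, so that a subtype, a fusion gene and anything else particular to that culture cannot be told apart.

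B-precursor ALL is arrested while the immunoglobulin genes are being rearranged, and its subtypes are defined by fusion genes. As background not given in the labels, Nalm6 carries a DUX4-IGH rearrangement, SUPB15 BCR-ABL1, RS411 KMT2A-AFF1 and REH ETV6-RUNX1. DUX4 is a homeobox transcription factor of the early embryo, and its fusion to the immunoglobulin locus makes B precursors express a truncated form of it. PAX5 and EBF1 hold B-lineage identity, and the pre-B-cell receptor signals through SYK once a heavy chain has been made.

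The untreated libraries held between 25.54 and 77.14 M counts (mega counts), with a median of 46.22 M. Levels are CPM, counts of a gene per mega count of its library, scaled by TMM factors and not divided by gene length, so they compare libraries and not genes. Abundant small noncoding RNAs took 6.69% of counts in Nalm6 A, 12.6% in Nalm6 B and 11.5% in Nalm6 C, and between 3.35% and 13.5% in the 12 other libraries. Their share was lower in library A of Nalm6, SUPB15 and RS411 and in library 1 of 697 than in the other libraries of the same line. REH A, with 9.48% against 12.4% and 11.1% in REH B and C, was also the lowest of its line, and it stays in wherever those 4 libraries, called the 4 first libraries here, are left out. The part of this RNA in the results was not tested. Values without the 4 first libraries are given where they end the call of a named gene or move a described count by over 1.5 times. The CD3 subunit genes CD3D, CD3E and CD3G, which define T cells, had 0 counts in Nalm6 and at most 1 in any other library. The 7 tested of 17 T-lineage markers summed to between 73.8 and 85.9 CPM in Nalm6 and between 14.3 and 285 CPM in the others. Summed CPM over the 5 tested of 14 myeloid markers lay between 4.93 and 6.57 in Nalm6 and between 1.36 and 74.6 in the other libraries. The rest of the 14, CD14 and ELANE among them, did not pass the filter on low counts. B-lineage markers, 11 genes, summed to between 2460 and 3600 CPM in Nalm6 and between 1920 and 5320 CPM in the others. MPO, the granule enzyme of granulocyte precursors, was at 0.930, 0.568 and 0.122 CPM in Nalm6 and reached 61.5 CPM in REH.

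In 19178 genes tested, 612 (3.19%) were above every one of the 4 lines in Nalm6 and 699 (3.64%) were below every one. A gene counts as above or below where its difference has 1 sign in all 4 contrasts and the Benjamini-Hochberg adjusted p of edgeR's quasi-likelihood test is under 0.05 in each. Without the 4 first libraries 967 were above every line. Of the 612 and 699, 608 (3.17%) and 649 (3.38%) also had no overlap in CPM between the 3 Nalm6 and the 12 other libraries. The median log2 difference between Nalm6 and the mean of the 4 lines was -0.02 over all genes. Single contrasts called far more genes, with 34.7% called against SUPB15, 36.7% against RS411, 33.4% against REH and 38.2% against 697. By the same rule SUPB15 was above the rest in 917 genes (4.78%) and below in 803 (4.19%), and RS411 above in 971 (5.06%) and below in 711 (3.71%). REH was above in 1040 (5.42%) and below in 576 (3%), and 697 above in 1018 (5.31%) and below in 1008 (5.26%). Nalm6 thus had the lowest count above and the lowest but one below, and no test of that order was made.

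**Figure D1:**
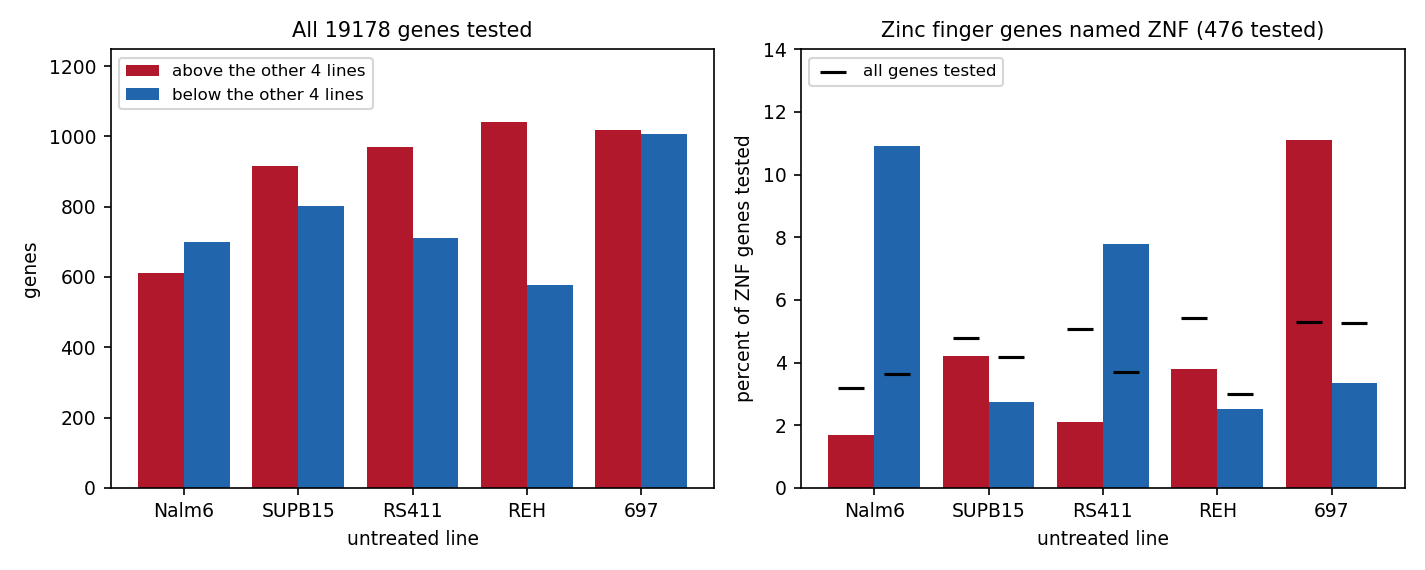
Left, the number of genes (y axis) in which each untreated line (x axis) was above (red) or below (blue) every one of the other 4 lines, with 612 and 699 in Nalm6. Right, the same as a percentage of the 476 tested zinc finger genes named ZNF, with black marks for the share of all genes tested; the Nalm6 blue bar stands at 10.9%, over a mark at 3.64%.

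Genes below every line were often silent in Nalm6. Of the 699 genes below, 241 had 3 counts or fewer in each Nalm6 library, and 152 of them had 0 counts in all 3. Of the 612 genes above, 74 had 3 counts or fewer in all 12 other libraries, and 27 had 0 there. The 2 shares are not alike, since few counts in 12 libraries are a stricter condition than in 3. Silent genes of the other lines were not counted. In every contrast, 453 genes were at least 2-fold above and 525 at least 2-fold below, and 123 and 239 were at least 16-fold above and below. These are bulk cultures, in which fewer cells that express a gene and less RNA of it per cell cannot be told apart.

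Among the 12 ranked genes that stood highest over every line are membrane proteins (PDGFRA, PVR, GFRA1, TRPC1) and secreted proteins that act in the extracellular matrix (SMOC2, PCOLCE2, ADAMTS3). Receptor gene segments, clone-based names and names turned into dates were not ranked, and among the segments IGLV2-14, described with the immunoglobulin genes, stood higher. PDGFRA, a receptor tyrosine kinase for platelet-derived growth factor, was at 189.8, 391 and 402.6 CPM in Nalm6 A, B and C and had 0 counts in all 12 other libraries. Against the floor of 3 counts per library, averaged over a line, it was at least 3700-fold higher (edgeR adjusted p = 3.6e-06, the largest of the 4 contrasts, as in all that follows). Library A was the lowest of the Nalm6 libraries.

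SMOC2, a secreted calcium-binding matrix protein, was at 24.4, 45.2 and 49.4 CPM in Nalm6 and at 0 in the others, at least 448-fold higher (edgeR adjusted p = 1e-05). PCOLCE2, which enhances procollagen processing, was at 14.7, 14.4 and 27.1 CPM against 0, at least 211-fold higher. Its chromosomal neighbour TRPC1, a cation channel, was also called, with 3.44, 5.13 and 5.46 CPM against 0, at least 52.8-fold higher. Both were silent in all 12 other libraries. PVR, the poliovirus receptor and a ligand of natural killer and T cell receptors, was at 12.8, 11.9 and 12.2 CPM against 0, at least 139-fold higher (edgeR adjusted p = 7e-06). ADAMTS3, a procollagen-processing metalloprotease, was at 8.65, 7.52 and 8.92 CPM against 0, at least 94.4-fold higher. CSRNP3, a nuclear protein, was at 3.21, 4.16 and 6.30 CPM against 0, at least 51.4-fold higher. No overlap in CPM with the other lines was a condition of the ranking and is no result of its own.

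CDC42BPA, a kinase that acts with CDC42 on the cytoskeleton, was at 84.7, 78.0 and 70.3 CPM in Nalm6 and at no more than 0.0375 CPM elsewhere (edgeR adjusted p = 3.8e-09). GFRA1, the co-receptor of glial cell line-derived neurotrophic factor, was at 54.3, 67.1 and 50.6 CPM in Nalm6 and at no more than 0.0354 CPM elsewhere. No fold is given for these, since the other lines rest on single counts. SPINK4, of a family of serine protease inhibitors, was at 6.25, 7.56 and 13.0 CPM against 0, at least 101-fold higher. That call was lost with DESeq2, where the log2 difference was 10.73 without passing in all 4 contrasts.

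The 12 ranked genes with the largest differences below every line were silent or nearly so in Nalm6. GRPEL2, a nucleotide exchange factor of the mitochondrial protein import motor, had 0 counts in all 3 Nalm6 libraries against 50.6 to 104.5 CPM, median 78.4, in the others, at least 958-fold lower (edgeR adjusted p = 1.4e-11). COCH, the extracellular protein cochlin, was at 0 against 30.4 to 149.5 CPM, median 68.1, at least 600-fold lower. ZNF197, a zinc finger protein, was at 0 against 10.5 to 77.4 CPM, median 27.9, at least 195-fold lower. No Nalm6 library held a count of any of the 3 genes, while all 12 other libraries expressed them.

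The 250 bases before the annotated start of these 3 genes are shown because each gene had no count in Nalm6 and clear expression in every other line. They come from RefSeq, build GRCh38.p14, on which GRPEL2 is at chr5:149345249-149345498, + strand, COCH at chr14:30874309-30874558, + strand and ZNF197 at chr3:44624786-44625035, + strand. Capitals mark CG dinucleotides.
GRPEL2: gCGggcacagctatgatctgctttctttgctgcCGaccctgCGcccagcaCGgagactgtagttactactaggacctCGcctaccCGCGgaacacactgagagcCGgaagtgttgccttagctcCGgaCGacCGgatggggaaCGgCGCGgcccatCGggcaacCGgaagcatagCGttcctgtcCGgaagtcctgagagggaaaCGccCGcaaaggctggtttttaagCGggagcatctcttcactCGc
COCH: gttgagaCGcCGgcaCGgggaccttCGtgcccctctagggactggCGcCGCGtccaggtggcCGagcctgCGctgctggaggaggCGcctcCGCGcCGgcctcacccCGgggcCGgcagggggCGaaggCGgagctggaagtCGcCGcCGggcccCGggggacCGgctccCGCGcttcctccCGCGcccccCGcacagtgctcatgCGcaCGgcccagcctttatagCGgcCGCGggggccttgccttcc
ZNF197: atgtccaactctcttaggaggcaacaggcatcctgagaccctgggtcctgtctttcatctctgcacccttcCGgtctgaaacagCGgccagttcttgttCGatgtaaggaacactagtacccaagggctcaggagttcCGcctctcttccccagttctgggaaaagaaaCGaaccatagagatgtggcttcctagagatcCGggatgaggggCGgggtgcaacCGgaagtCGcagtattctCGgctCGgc
They hold 22 CG dinucleotides in GRPEL2, 32 in COCH and 11 in ZNF197, on windows of equal length. Over 10856 tested protein-coding genes with such a window the median was 21, with quartiles of 13 and 28. GRPEL2 lay near that median, COCH above the upper quartile and ZNF197 below the lower one. Methylation is not analysed here.

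SUCLG2, the GTP-forming beta subunit of succinyl-CoA ligase in the citric acid cycle, was also at 0 in Nalm6, against 26.2 to 77.3 CPM, median 56.2, at least 459-fold lower (edgeR adjusted p = 8.1e-11). ASPH, an aspartyl hydroxylase of the endoplasmic reticulum, was at 0 against 34.7 to 121.5 CPM, median 61.6, at least 608-fold lower. ALCAM, the adhesion molecule CD166, was at 0 against 23.7 to 82.2 CPM, median 36.8, at least 443-fold lower. IGFBP7, a secreted binding protein of insulin-like growth factors, was likewise at 0, against 23.9 to 157 CPM, median 109.6, and was at least 412-fold lower. It also belongs to the list of genes tied to the fusions of the other lines.

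FAM101B, a filamin-binding protein, was at 0 against 26.0 to 88.2 CPM, at least 573-fold lower. CNTLN, a centriole protein, was at 0 against 14.9 to 123 CPM, at least 275-fold lower. SYT1, the calcium sensor synaptotagmin of secretory vesicles, was at 0 against 12.7 to 96.1 CPM, at least 208-fold lower. Neighbouring histone genes were nearly silent. HIST1H2BH, a replication-dependent histone H2B, was at 0.0845, 0.0203 and 0.0541 CPM in Nalm6 against 238.5 to 1362 CPM, median 689.8 (edgeR adjusted p = 9.3e-10). HIST1H3F, an H3 gene beside it, was at 0.197, 0 and 0.0405 CPM against 36.2 to 1231 CPM, median 496.9. No fold is given for these, since Nalm6 rests on 8 counts of HIST1H2BH and 10 of HIST1H3F in all. Histone genes have close copies, among which counting could split reads. All 24 genes ranked in both directions were called the same way in the L-asparaginase libraries.

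**Figure D2:**
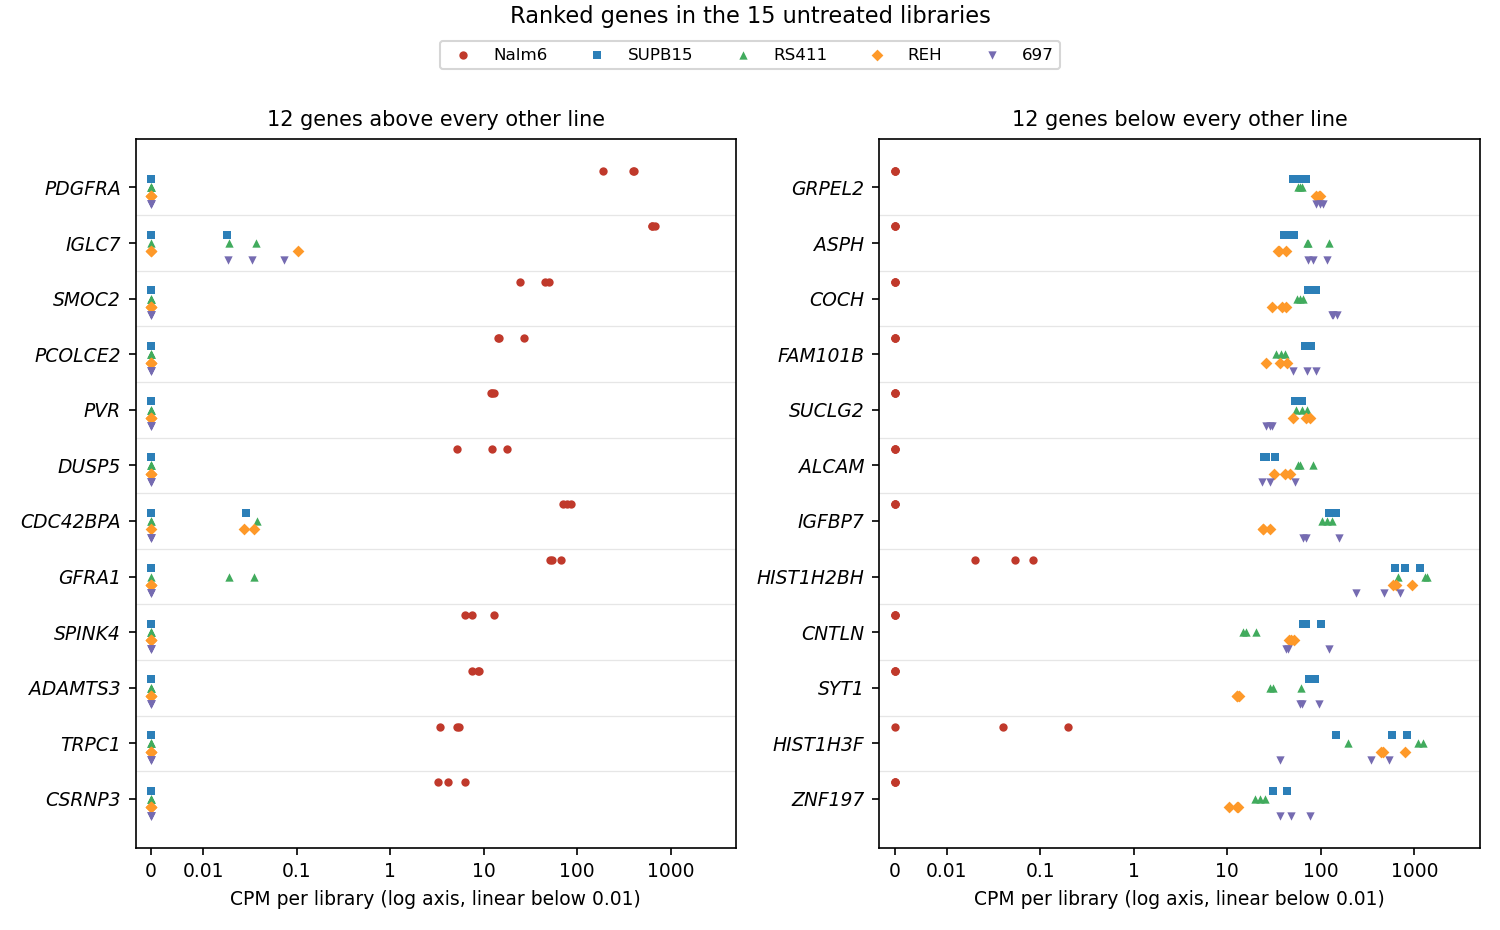
CPM per library (x axis, log scale, linear below 0.01) of the 12 ranked genes above every other line (left) and the 12 below (right), with 1 point per library and 1 colour per line, Nalm6 on top. Nalm6 points lie to the right of all others on the left panel, PDGFRA reaching 402.6 CPM, and at or near 0 on the right panel, where GRPEL2 spans 50.6 to 104.5 CPM in the other lines. The ranking required no overlap between Nalm6 and the other lines.

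Genes known from DUX4-rearranged leukaemia were higher. Of 14 tested members of that list, taken from the literature with these data already seen, 7 were above every line and 0 below, against 3.19% and 3.64% of all genes. Their median log2 difference from the mean of the 4 lines was 2.78, against -0.02 over all genes. Against that mean, 10 were higher and 1 lower, where 18.1% of all genes were higher and 13.8% lower (31.9% in all). Beside PDGFRA, these included CHST2, a sulfotransferase, at 164.7, 348.3 and 393.9 CPM in Nalm6 against 0.192 to 5.10 CPM, median 0.468, 73.2-fold higher than in RS411 (edgeR adjusted p = 1e-08). STAP1, an adaptor of B-cell receptor and kinase signalling, was at 173, 222.7 and 241 CPM against 0.104 to 29.7 CPM, 8.51-fold higher than in SUPB15. CLEC12A, a myeloid lectin receptor, was at 5.75, 12.7 and 13.6 CPM against no more than 0.0228 CPM. No library of another line reached the lowest Nalm6 library for any of them.

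AGAP1, a regulator of ARF GTPases, was at 106.9, 139.7 and 116 CPM against 0 to 75.5 CPM, median 34.2, 1.86-fold higher than in 697 (edgeR adjusted p = 0.0069). GPR155, an integral membrane protein of the lysosome, was at 44.2, 56.3 and 76.1 CPM against 2.68 to 27.5 CPM, 2.46-fold higher than in 697. CHST7, another sulfotransferase, was at 5.95, 8.96 and 11.7 CPM against 0.298 to 4.89 CPM (edgeR adjusted p = 0.029). These differences were smaller and set mostly by 1 other line. PTPRM, a receptor phosphatase, was at 23.0, 24.8 and 22.9 CPM and not above every line, since 697 averaged 30.1 CPM. ERG, the ETS factor of which a short form is made in this subtype, averaged 139.5 ± 13.2 CPM in Nalm6 and between 28.3 (697) and 218.2 CPM (REH) in the other lines (SD, n = 3 per line), with no call. Counts per gene do not tell its forms apart. DUX4 itself is not analysed here. Embryonic DUX4 targets were near 0, with 2 of 21 such genes past the filter on low counts and neither called.

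Immunoglobulin transcripts differed in kind. IGLC7, a lambda light chain constant gene, was at 623.6, 635.2 and 677.4 CPM in Nalm6 and at no more than 0.104 CPM elsewhere. IGLC3, another lambda constant gene, was at 45.6, 31.8 and 42.5 CPM against 0.0208 to 10.5 CPM and was above every line. The variable segment IGLV2-14, chosen after its values were seen, was at 467.3, 672.6 and 673.6 CPM against 0 counts in all 12 others, at least 6820-fold higher. Lambda constant genes are nearly identical, so reads could be split among them. IGKC, the kappa constant gene, and IGLL5 had 0 counts in all Nalm6 libraries and were at up to 2.53 and 26.4 CPM elsewhere. IGHM, the heavy chain constant gene of IgM, was at 1421, 1752 and 1663 CPM against 120.6 to 1250 CPM, median 339.8, without overlap, but the difference from SUPB15 did not pass (log2 0.41, edgeR adjusted p = 0.087). In the L-asparaginase libraries it was above every line.

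B-lineage regulators were mixed. Of 30 tested transcription factors 3 were above every line and 3 below, against 3.19% and 3.64% of all genes. The median log2 difference of the factors was 0.28. TCF4, the E protein E2-2, was at 529.4, 600.3 and 666.3 CPM in Nalm6 against 3.29 to 336.7 CPM, median 194.3, 2.23-fold higher than in 697 (edgeR adjusted p = 4.6e-05). IRF4, which acts at the pre-B stage and in plasma cells, was at 335.9, 351.8 and 347.7 CPM against 2.17 to 266.4 CPM, 1.68-fold higher than in SUPB15 (edgeR adjusted p = 0.0064). BACH2, a repressor of plasma cell fate, was the other one above, at 230.1, 247.2 and 208.1 CPM against 28.4 to 128.4 CPM. In each the lowest Nalm6 library was above the highest of the others.

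MEF2C, a factor of B-cell proliferation and survival, was at 200.8, 138.8 and 192.5 CPM against 558.8 to 2388 CPM, median 730.2, 3.8-fold lower than in RS411 (edgeR adjusted p = 5.6e-05). BCL6, a repressor active in pre-B and germinal centre cells, was at 11.4, 4.04 and 5 CPM against 18.1 to 111.6 CPM, 3.28-fold lower than in SUPB15. IRF8, a factor of myeloid and B-cell development, was at 3.52, 3.29 and 3.46 CPM against 6.07 to 137.1 CPM, 2.14-fold lower than in REH. All 3 were lowest in Nalm6, with no overlap. PAX5 was at 381.9, 416.4 and 391.4 CPM against 213.4 to 348.2 CPM. It was higher than the mean of the 4 lines (log2 0.55, edgeR adjusted p = 0.00018) but not above RS411 (log2 0.26, edgeR adjusted p = 0.10). EBF1 averaged 261.9 ± 19.7 CPM in Nalm6 and between 238.8 (REH) and 313.7 CPM (RS411) in the others (SD, n = 3), and was not called.

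Among 26 tested genes of the pre-B-cell receptor and its proximal signalling, 2 were above and 2 below every line. Of all genes 3.19% were above and 3.64% below. SYK, a kinase through which the receptor signals, was at 388.7, 409.4 and 461.6 CPM against 75.2 to 259.9 CPM, median 195, 1.76-fold higher than in REH (edgeR adjusted p = 0.00064). PIK3AP1, the adaptor BCAP that links B-cell receptor signalling to PI3K, was at 1126, 1039 and 977.1 CPM against 308.8 to 698 CPM, 1.56-fold higher than in SUPB15. PRKCB, the protein kinase C that passes the signal to NF-kB, was at 0.113, 0.203 and 0.257 CPM against 1.83 to 230.2 CPM, median 74.4, 15.9-fold lower than in 697 (edgeR adjusted p = 1.4e-07). CD22, an inhibitory co-receptor, was at 44.8, 32.2 and 41.2 CPM against 57.7 to 119.5 CPM, 1.55-fold lower than in SUPB15. None of the 4 overlapped between Nalm6 and the rest. Without the 4 first libraries 5 members were above.

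**Figure D3:**
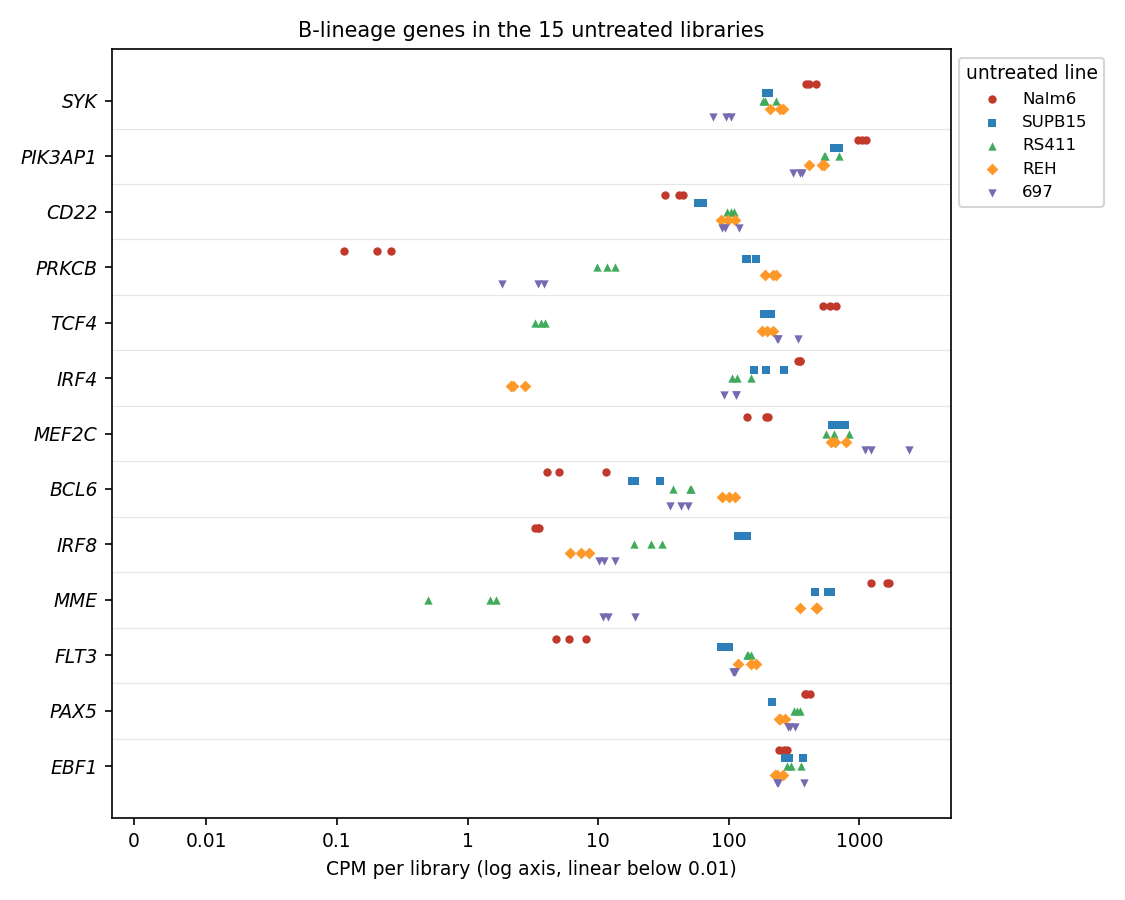
CPM per library (x axis, log scale, linear below 0.01) of 13 B-lineage genes, with 1 point per library and 1 colour per line. SYK, PIK3AP1, TCF4, IRF4 and MME lie to the right in Nalm6, PRKCB, MEF2C, BCL6, IRF8, CD22 and FLT3 to the left, and EBF1 overlaps.

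Of 12 tested genes of V(D)J recombination 1 was above every line and 0 below, against 3.19% and 3.64% of all genes. LIG4, the ligase of end joining, was at 164.7, 197.1 and 202.7 CPM against 8.79 to 57.1 CPM, median 40.1, 3.48-fold higher than in SUPB15 (edgeR adjusted p = 5.3e-06). RAG1, the recombinase, averaged 352.4 ± 127.5 CPM in Nalm6 and ranged over 50.2 to 1475 CPM elsewhere. DNTT, which adds bases at the joints, averaged 344.4 ± 77.1 CPM in Nalm6 and ranged over 48.0 to 1982 CPM elsewhere. Neither was called.

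On the cell surface, 34 tested antigens held 3 above and 3 below every line, against 3.19% and 3.64% of all genes. The median log2 difference of the antigens was -0.46. A replicate block, which pairs libraries by letter, gave 4 antigens above and 5 below. MME, the common ALL antigen CD10, was at 1222, 1621 and 1682 CPM against 0.496 to 609.7 CPM, median 183.7, 2.75-fold higher than in SUPB15 (edgeR adjusted p = 0.0014). CXCR4, the receptor that holds B precursors in marrow, was at 335.9, 536.7 and 522.5 CPM against 42.7 to 291.4 CPM, 2.05-fold higher than in RS411. CLEC12A, described with the DUX4 genes, was the other one above. NT5E, the ectonucleotidase CD73, was at 0, 0.0203 and 0 CPM against 1.35 to 86.6 CPM. CD34, the progenitor antigen, averaged 2.96 ± 1.53 CPM in Nalm6 and 526.4 CPM in SUPB15, and no more than 0.143 CPM in the other lines. SDC1, the plasma cell antigen CD138, was at 29.8, 48.2 and 47.3 CPM in Nalm6 against 0 to 4.88 CPM, 11.1-fold higher than in REH (edgeR adjusted p = 1.2e-05). It is not 1 of the 34 antigens but belongs to the plasma cell markers. Of 7 such markers tested, SDC1 and IRF4 were above and 0 below. Against the mean of the 4 lines 3 of the 7 were higher and 1 lower.

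Receptor tyrosine kinases ran both ways, with 3 of 36 tested members above and 5 below, against 3.19% and 3.64% of all genes. Beside PDGFRA, ROR2, a Wnt receptor, was at 6.11, 6.43 and 5.95 CPM against 0 to 0.385 CPM, 22.5-fold higher than in RS411 (edgeR adjusted p = 4.5e-06). DDR1, a collagen receptor, was at 23.6, 34.5 and 47.7 CPM against 0.283 to 14.1 CPM, 3.04-fold higher than in SUPB15 (edgeR adjusted p = 0.029). FLT3, the progenitor cytokine receptor that is high in KMT2A-rearranged leukaemia, was at 8, 6.02 and 4.72 CPM against 86.8 to 160.5 CPM, median 115, 15-fold lower than in SUPB15 (edgeR adjusted p = 8.2e-10). Its 3 Nalm6 values were far under all 12 others. CSF1R, the macrophage growth factor receptor, was at 0.0282, 0 and 0 CPM against 1.36 to 11.01 CPM. ERBB2 was at 1.01, 1.56 and 1.49 CPM against 4.51 to 99.2 CPM, 3.84-fold lower than in REH. The insulin receptor INSR was at 117.2, 139.6 and 119.7 CPM against 161.6 to 385.7 CPM (edgeR adjusted p = 0.015). Members below numbered 3 without Nalm6 A or without Nalm6 C. Members above numbered 2 without Nalm6 B, Nalm6 C or any 1 of the 3 SUPB15 libraries.

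Of 30 tested cytokine receptors and JAK-STAT genes 2 were above and 2 below, against 3.19% and 3.64% of all genes. IFNGR2, the signalling chain of the interferon gamma receptor, had 0 counts in Nalm6 against 6.62 to 42.7 CPM, median 27.9, at least 144-fold lower (edgeR adjusted p = 3.4e-09). STAT5A was at 6.65, 5.03 and 2.83 CPM against 15.5 to 41.9 CPM, 3.26-fold lower than in REH. CSF2RB, the common beta chain of the GM-CSF, IL-3 and IL-5 receptors, was at 52.1, 69.3 and 76.7 CPM against 1.95 to 28.0 CPM, 2.44-fold higher than in REH. STAT4 was low throughout but higher, at 1.18, 0.71 and 0.96 CPM against no more than 0.232 CPM. Of the 28 antigen presentation genes, which include targets of interferon gamma, none was above or below every line with edgeR. At an unadjusted p under 0.05 in all 4 contrasts 1 was above and 0 below, with DESeq2 1 was above, and 1 was above without Nalm6 A, REH C or 697 1. Without the 4 first libraries 2 were above, and with the replicate block, a fit that also holds the shared library letter, 1 was. Against the mean of the 4 lines 13 were higher and 1 lower, where 18.1% of all genes were higher and 13.8% lower.

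ERK feedback and immediate early genes, which ERK signalling switches on, had 5 of 28 tested members above and 0 below. Of all genes 3.19% were above and 3.64% below. The median log2 difference of the members was 1.12. Against the mean of the 4 lines 16 members were higher and 3 lower, beside 18.1% and 13.8% of all genes. DUSP5, a nuclear ERK phosphatase, was at 5.13, 12.3 and 17.7 CPM in Nalm6 against 0, at least 132-fold higher (edgeR adjusted p = 0.00015). NR4A3, an orphan nuclear receptor, was at 18.2, 17.2 and 11.8 CPM against 0.0936 to 2.54 CPM, 7.62-fold higher than in REH. IER3, an early-response survival protein, was at 14.9, 15.9 and 12.5 CPM against 1.71 to 7.13 CPM, 2.43-fold higher than in 697. SPRY1, a feedback inhibitor, was at 19.1, 21.0 and 26.5 CPM against 3.11 to 15.6 CPM (edgeR adjusted p = 0.016). EGR4 was above at 0.254, 0.487 and 0.446 CPM against 0, and that call was lost with DESeq2 (log2 6.23). The common members DUSP6, EGR1 and FOS overlapped the other lines. FOS was at 1.86, 2.92 and 4.32 CPM in Nalm6 against 0.468 to 34.0 CPM. Without the 4 first libraries 7 members were above, and 2 were in the L-asparaginase libraries. In this and every other pathway list with 0 members called by edgeR in 1 direction, other than antigen presentation, the count in that direction was 0 also at an unadjusted p under 0.05 and with DESeq2.

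**Figure D4:**
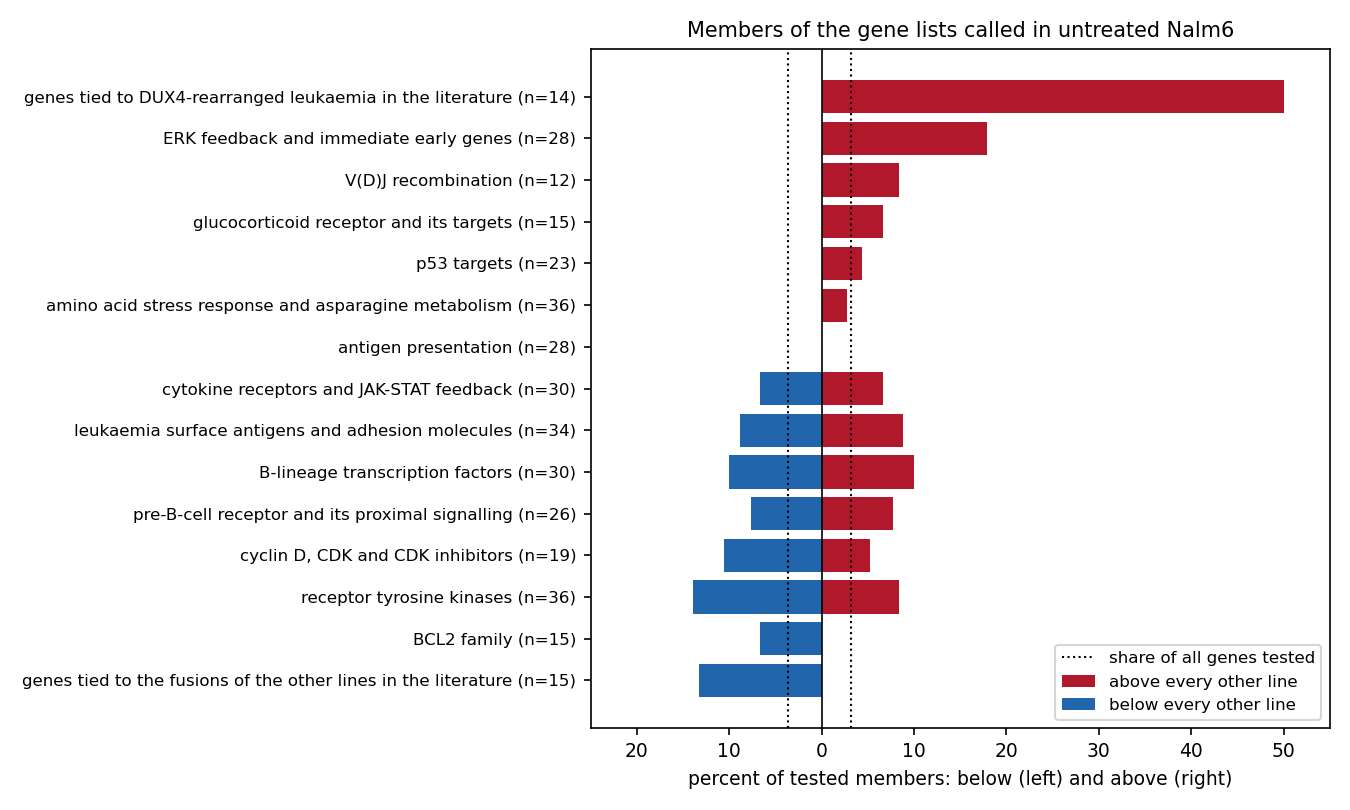
Share of tested members (x axis, percent) above every other line (red, right of 0) and below every line (blue, left of 0) for each described gene list with 10 or more tested members, with dotted lines at the shares of all genes, 3.19% and 3.64%. The list tied to DUX4-rearranged leukaemia has 7 of 14 above and stands far out on the right.

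Some called genes were neighbours in the RefSeq order of genes on a chromosome (GRCh38.p14, used for order only). Among 15494 tested genes with a position there were 7 runs of 3 or more above every line and 7 below, of which 6 in each direction are described. On chromosome 22 APOBEC3C, APOBEC3D, APOBEC3F and APOBEC3G, cytidine deaminases of antiviral defence, were all above. APOBEC3G was at 103.1, 94.3 and 104.1 CPM against 24.2 to 40.5 CPM, median 30.7, 2.82-fold higher than in RS411 (edgeR adjusted p = 5e-06). APOBEC3C was at 95.0, 90.1 and 91.2 CPM against 18.9 to 56.6 CPM. The family has close copies, and the APOBEC3D call was lost without REH B (0.52). On chromosome 1 NFIA-AS2, NFIA, TM2D1 and PATJ formed a run. NFIA, a nuclear factor I protein, was at 40.6, 33.4 and 42.0 CPM against 0 to 21.0 CPM, and PATJ, a tight junction scaffold, at 37.5, 45.1 and 33.8 CPM against 0 to 19.4 CPM. TM2D1 was not called without Nalm6 B or C or SUPB15 A or B (0.34 to 0.51).

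On chromosome 3 LINC00887, CPN2, LRRC15 and GP5 were all above. LRRC15, a membrane protein best known from fibroblasts, was at 16.8, 17.2 and 9.54 CPM against 0 to 3.29 CPM, and GP5, a platelet glycoprotein, at 9.97, 18.5 and 12.3 CPM against 0 to 1.59 CPM. LINC00887 was not called without REH C (3.16). ABCG1, a sterol exporter, ended a run of 3 on chromosome 21 with UMODL1 and UMODL1-AS1, at 59.4, 120.7 and 92.9 CPM against 0.248 to 9.13 CPM, 13.4-fold higher than in REH (edgeR adjusted p = 5.3e-06). UMODL1 was not called without RS411 C (1.2). SIN3B, F2RL3 and CPAMD8 on chromosome 19 and DBNL, POLM and AEBP1 on chromosome 7 were the other runs described above every line. The DBNL call was lost without SUPB15 A (0.50), that of SIN3B without Nalm6 B (0.53) or SUPB15 A (0.49). F2RL3 lost its call without any of 9 libraries, namely Nalm6 B and C, SUPB15 A and B, RS411 A, all 3 of REH, and 697 2 (0.52 to 0.83).

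Below every line, GRPEL2 lay beside PCYOX1L and CSNK1A1 on chromosome 5. CSNK1A1, the casein kinase that restrains beta-catenin, was at 64.4, 61.6 and 59.6 CPM against 106.9 to 201.8 CPM, median 134.4, 1.85-fold lower than in RS411 (edgeR adjusted p = 0.00032). PCYOX1L lost its call without Nalm6 B or C or any 1 of the SUPB15 libraries (-0.61 to -0.46). On chromosome 7 ST7, a candidate tumour suppressor, was at 0.0282, 0 and 0.0270 CPM against 4.05 to 19.6 CPM, with ST7-AS1 and ST7-OT4 beside it at 0. CMTM2, CMTM1 and CKLF, a chemokine-like cluster on chromosome 16, were all low, CMTM2 at 0.0563, 0.0811 and 0.0270 CPM against 0.728 to 19 CPM. A further 3 runs below every line were of zinc finger genes. It is not stated whether counting used the strand, so a gene and its overlapping antisense gene may share reads.

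Zinc finger genes named ZNF, most of which encode KRAB repressors of transposable elements, were a family picked after its values were seen. Of 476 tested, 8 (1.68%) were above and 52 (10.9%) below every line, against 3.19% and 3.64% of all genes. On chromosome 19, where many lie in clusters, 38 of 237 (16%) were below, and on other chromosomes 14 of 239 (5.86%). Other genes of chromosome 19 were below in 13 of 848 cases (1.53%). The other lines had 13 (SUPB15), 37 (RS411), 12 (REH) and 16 (697) ZNF genes below the rest, and 697 had 53 above. In Nalm6, 36 of the 52 were at least 2-fold below in each contrast, and 7 had 0 counts in all 3 libraries. All 52 were also below every line in the L-asparaginase libraries. There 110 of 479 tested ZNF genes (23%) were below every line, against 6.68% of all genes.

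ZNF841 was at 0 in Nalm6 against 3.74 to 72.8 CPM, at least 72.7-fold lower. ZNF347 was at 0.0563, 0.0811 and 0.108 CPM against 10.8 to 59.0 CPM, median 38.0, 173-fold lower than in RS411 (edgeR adjusted p = 2.5e-10). ZNF320 was at 0.225, 0.0811 and 0.189 CPM against 12.9 to 29.9 CPM, 87.7-fold lower than in REH. All 3 were lowest in every Nalm6 library. On chromosome 19 ZNF529-AS1, ZNF382, ZNF461, ZNF567, LINC01534 and ZNF850 formed a run of 6, with ZNF850 at 11.02, 12.9 and 14.8 CPM against 38.4 to 128.1 CPM. Within it ZNF461 lost its call without Nalm6 B or C or REH A (-1.32 to -0.62), LINC01534 without Nalm6 B (-0.96) or SUPB15 A (-0.95), and ZNF529-AS1 without Nalm6 B (-0.73). ZNF415, ZNF347 and ZNF665 on chromosome 19 and ZNF197-AS1, ZNF197 and ZNF35 on chromosome 3 were the other runs. These genes have close paralogs, among which counting could split reads. Leaving out 1 library at a time left 37 to 56 ZNF genes below and 6 to 13 above, with 13 above without 697 1, and 17 were above without the 4 first libraries.

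E2F2, a transcription factor of S phase entry, was at 509.6, 737.4 and 596.5 CPM against 48.6 to 260.1 CPM, median 210.8, 2.52-fold higher than in RS411 (edgeR adjusted p = 0.0017). It was the only 1 above of 19 tested cyclin D and CDK genes, with 2 below, and without the 4 first libraries 2 were above and 1 below. Of all genes 3.19% were above and 3.64% below. For this and the next lists, 1 member called in a list this short is no result about the list. RBL1, the pocket protein p107, was 1.42-fold lower than in REH (edgeR adjusted p = 0.024). Its call was lost without Nalm6 A or C, REH A or B, or 697 1 (-0.51 to -0.33), and without the 4 first libraries (-0.33). CCND1 had 0 counts in Nalm6 and 0 to 10.4 CPM elsewhere, and its call was lost without 697 3 (-3.70). CDKN2A had 0 counts in Nalm6 and at most 17 in any other library. ZMAT3, an RNA-binding p53 target, was the 1 of 23 p53 targets above, at 71.7, 72.2 and 68.8 CPM against 19.99 to 44.3 CPM, 2.12-fold higher than in REH, and 2 targets were above without the 4 first libraries. BCL2, the survival protein, was the 1 of 15 family members below, at 144.9, 156.6 and 147 CPM against 184.2 to 429.8 CPM, 1.49-fold lower than in 697 (edgeR adjusted p = 0.010). Without the 4 first libraries that call was lost (-0.31).

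Of 36 tested genes of the amino acid stress response and asparagine metabolism, the question of the study, 1 was above every line and 0 below. Of all genes 3.19% were above and 3.64% below, so 1 above of 36 is near the share of all genes. Of the 36, 2 were above without Nalm6 A, 697 1 or 697 2 or with the replicate block, and 4 without the 4 first libraries. VLDLR, a lipoprotein receptor that amino acid starvation induces, was at 59.6, 92.4 and 106.6 CPM against 0.301 to 42.0 CPM, 2.28-fold higher than in 697 (edgeR adjusted p = 0.0019). ASNS, the asparagine synthetase whose level is studied as a factor of asparaginase resistance, was at 50.3, 110 and 59.3 CPM in Nalm6. It averaged 73.2 ± 32.2 CPM there, against 68.8 CPM in REH, 44.9 in 697, 1.34 in RS411 and 1.23 in SUPB15 (n = 3 each). Nalm6 and REH were not told apart (log2 difference 0.09, edgeR adjusted p = 0.85), and its libraries overlapped those of REH. Of 15 tested glucocorticoid genes BTG1, an antiproliferative protein, was above, at 64.7, 101.9 and 131.4 CPM in Nalm6 against 23.4 to 68.0 CPM, with overlap. That call was lost without Nalm6 B or C, RS411 A or C, or REH B (0.59 to 0.87).

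Of 15 tested genes tied to the fusions of the other lines, 0 were above every line in Nalm6 and 2 below. Of all genes 3.19% were above and 3.64% below. The median log2 difference of the 15 from the mean of the 4 lines was -4.09, and 6 of the 15 were lower. HOXA5, a homeobox gene of KMT2A-rearranged leukaemia, had 0 counts in Nalm6 against 0.478 to 8.59 CPM, at least 10.9-fold lower than in SUPB15 (edgeR adjusted p = 4.4e-06). MEIS1, also a homeobox gene, was at 0 in Nalm6 and averaged 160.2 CPM in RS411. EPOR averaged 0.397 ± 0.230 CPM in Nalm6 and 17.4 CPM in REH. MEIS1 and EPOR were each high in 1 line and were not below every line. Of the markers of other cell types, GATA3, a T-lineage factor, was above at 4.65, 3.00 and 3.61 CPM against 0.0854 to 3.11 CPM, with overlap, and lost its call without Nalm6 A or C or 697 2 or 3 (0.84 to 1.15). It was the 1 above of 7 tested T-lineage markers. VWF, an endothelial protein, was the 1 below of 4 tested stromal and endothelial markers, at 0.0203 CPM or less. It rests on 2 counts in Nalm6. Its call was lost without any 1 of 6 libraries, Nalm6 A, B or C, SUPB15 C, RS411 C or 697 2 (-3.00 to -1.37). The VWF call was also lost with DESeq2 (-2.86) and with no filter on low counts (-2.61).

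The 15 libraries of the same lines after L-asparaginase had no part in choosing these genes. There 1055 of 18417 genes (5.73%) were above every line in Nalm6 and 1231 (6.68%) below. Of the 612 genes above untreated, 444 (72.5%) were above there too, which is 42.1% of the treated list. Of the 699 below, 555 (79.4%) were below there too, which is 45.1% of the treated list. Of those tested in both, 536 of 576 above and 664 of 686 below had the same sign in all 4 contrasts. SYK, IRF4, BCL6, NR4A3, IER3, E2F2 and ZMAT3 were among the genes called untreated and not called there. The change of the difference from the mean of the 4 lines was tested itself, and 1.88% of all genes passed. It passed for NR4A3, IER3 and BCL6, and did not pass for SYK, IRF4, E2F2 and ZMAT3 (edgeR adjusted p = 0.078, 0.056, 0.096 and 0.68). That test reuses the untreated libraries that chose these genes, which favours a change back towards the other lines.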

How the data were processed

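The authors deposited a table of raw counts for each line, whole numbers by gene symbol without normalization, as the values show. The submitters' processing notes name hg19. For the aligner, counter, annotation and strand setting the sources used here give nothing. Tables were joined on symbol (50648 genes). Columns were matched by line and treatment. The letters A to C are in no label, and 697 has numbers. Between 26 and 28 symbols per table had become dates, and 2 duplicated names were left out. Libraries differed by at least 25.5 chi-square per degree of freedom, so none is a copy.

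edgeR 4.0.16 in R 4.3.3 (TMM, filterByExpr with a minimum count of 10, glmQLFit and glmQLFTest, 1 coefficient per line) was fitted over the 15 untreated libraries and tested on simulated data. P-values were adjusted over all tested genes in each contrast by Benjamini-Hochberg at 0.05. A fold against a group at 0 uses a floor of 3 counts per library, which covers counting error only. Members and lists were chosen with earlier results of these data known. Named genes are the 12 largest differences per direction (no overlap, at least 1 CPM in the higher group, with receptor segments, clone-based names, dates and sex-linked marker genes not ranked), up to 4 called members per list, ASNS, marker genes and neighbour runs. A few further members and genes named in the text were chosen after their values were seen. A few genes the rule named are not reported here. Names, chromosomes, order and promoters come from RefSeq GRCh38.p14.

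Deviations from the line means over 8590 genes correlated between Nalm6 and each other line in all 12 same-letter pairs (0.22 to 0.81, with 697 1 to 3 set against A to C). Libraries B and C also correlated across letters, Nalm6 C at 0.43 with RS411 B and at 0.34 with RS411 C. Same-letter pairs without Nalm6 ran from -0.02 (REH C with 697 3) to 0.85 (SUPB15 A with 697 1). These values do not settle how B and C pair. For the replicate block the pairing was taken from the column names. Alternatives were DESeq2 1.42.0, its size factors, no filter, a 2-fold minimum, 1 adjustment of the largest p, the replicate block, leaving out libraries and the L-asparaginase libraries.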

Additional observations from a re-analysis of the deposited data

Results flagged for a closer look

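The response of Nalm6 to L-asparaginase differed from the mean response of the 4 other lines in 8 of the genes named above, by a test of the difference itself over 30 libraries (edgeR interaction contrast, Benjamini-Hochberg over 19702 genes, of which 371, 1.88%, passed). Values are the Nalm6 response minus the mean response of the other lines, on the log2 scale, with n = 3 per line and treatment. PAX5 aside, these genes were named because they were called in untreated Nalm6. The contrast reuses those untreated libraries, so the choice itself favours a change back towards the other lines. NR4A3 had -2.87 (SE 0.595, adjusted p = 0.0098), with responses of -4.53 in Nalm6 and -1.66 in the others. IER3 had -1.22 (SE 0.212, adjusted p = 0.0022), with -1.55 in Nalm6 and -0.32 in the others. The repressor BCL6 moved the other way, at 1.39 (SE 0.314, adjusted p = 0.017), and so did MEF2C at 0.90 (SE 0.236, adjusted p = 0.046). PAX5 had -0.53 (SE 0.137, adjusted p = 0.039), with 0.08 in Nalm6 and 0.62 in the others. SIN3B, a co-repressor scaffold, had -0.79 (adjusted p = 0.013). UMODL1 had -1.73 (adjusted p = 0.021) and its antisense neighbour UMODL1-AS1 -2.10 (adjusted p = 0.04).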

How the results depend on the processing

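Genes above every line numbered 612 and genes below 699. Leaving out 1 library at a time gave 513 to 793 above and 550 to 795 below. DESeq2 gave 682 and 761, its size factors 610 and 698, no filter 608 and 657, and 1 adjustment of the largest p 468 and 490. With the replicate block there were 765 above and 806 below, with 612 and 692 in both fits, and the block ended no call of a named gene above or below every line. Without the 4 first libraries 967 were above and 877 below, and 4182 were higher than REH. In the L-asparaginase libraries 1055 were above and 1231 below, 5337 were higher and 5553 lower than SUPB15, 4944 higher than RS411, 4480 higher than REH, and 5292 higher and 4393 lower than the mean. There the log2 difference from the nearest line changed sign for BCL6 (0.35), F2RL3 (-0.94), IER3 (-0.03), IRF4 (-0.30), RBL1 (0.05), UMODL1 (-0.26) and UMODL1-AS1 (-0.42), and that from the mean of the 4 lines for ERG (-0.20) and IGLL1 (-0.21). The cause was not tested. Of 2684 values of named genes over all alternatives, 2561 kept direction and side of the threshold, 92 lost it, 22 gained it and 9 reversed. The floor of 3 counts was between 0.0405 and 0.111 CPM, and lower levels carry large counting error.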

Other observations

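Calls were spread over the chromosomes. Genes below every line took 7.46% of 523 tested genes on chromosome 8 and 1.92% of 416 on chromosome 20, and genes above took 5.99% of 217 on chromosome 18 and 2.18% of 321 on chromosome 13, against 3.64% and 3.19% of all genes. No test was made of these shares.

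Names that are clone identifiers made up 3531 of the tested genes, with 99 above and 78 below every line. Of 75 tested receptor segments 4 were above, namely IGLV2-14, IGLV4-3, IGHVII-60-1 and TRGV9. IGLV4-3 was at 96.1, 143.3 and 181.2 CPM in Nalm6 against 0 to 16.6 CPM in the others. CRLF2 and IL3RA, cytokine receptor genes used to type B-precursor leukaemia, had 0 counts in all 15 libraries, as had CSF2RA. CD99 had 0 in Nalm6 and at most 3 elsewhere, so these genes could not be compared. Whether their reads were lost in alignment or counting was not tested, so a count of 0 here does not show that the gene is silent.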
